A study of Mus musculus with 63 samples.

Results

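The set described here holds 10 measured genes, 8 genes of regulators of G protein signalling (RGS), namely Rgs2, Rgs4, Rgs6, Rgs7, Rgs8, Rgs10, Rgs14 and Rgs17, and the genes of 2 proteins that bind the Rgs6 and Rgs7 proteins, Gnb5 and Rgs7bp. They were taken by symbol from a table of 20183 genes, and all 10 were found there. In these cells Rgs7 was read in 31 of 35 light-sensitive (LS) cells and in 1 of 12 non-light-sensitive (NS) cells, and Rgs2 in 28 of 35 and 1 of 12. Gnb5 was read in 23 of 35 LS cells and in none of the 12 NS cells, and Rgs7bp in 33 of 35 and 4 of 12. Rgs6, Rgs8, Rgs10 and Rgs14 had the higher mean level in NS cells, each carried by 2 to 5 cells.

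An RGS protein binds an active G alpha subunit and speeds up its GTP hydrolysis, which shortens the signal of G protein-coupled receptors such as those for glutamate, GABA and monoamines. Rgs6 and Rgs7 belong to the R7 family, whose proteins are stable only in a complex with the G beta subunit encoded by Gnb5 and are tethered to the plasma membrane by the R7-binding protein encoded by Rgs7bp. Rgs2, Rgs4 and Rgs8 are small proteins of the R4 family, Rgs10 and Rgs14 belong to the R12 family, and Rgs17 to the RZ family.

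Each sample was the soma of 1 cell, sucked into a patch pipette in vivo out of layer 2/3 in V1, the primary visual cortex, of wild type C57BL/6 mice aged 70 days and sequenced by Smart-seq2, which copies full-length transcripts and amplifies them by PCR without molecular identifiers. The calcium response to a light grating in the lightly anaesthetised mouse decided whether a cell was LS or NS, and all cells had been loaded with the calcium dye Cal-520 AM. Of 46 LS and 17 NS cells in the table, 35 LS and 12 NS cells passed the quality filters of the study as far as they could be applied to the deposited values. The labels name no mouse for a cell, so the cells of a group count as 1 sample, LS and NS were compared without a test, and each SD is the spread between cells. Levels are the deposited FPKM values, which are fragments per kilobase of exon scaled to the read total of the cell. Reads of a gene were worked out from the spacing of its FPKM values. Intervals are exact 95% intervals, binomial for shares of cells and Poisson for reads, and cover counting error only.

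The groups differed in more than their response to light. Library depth on the listed genes lay between 368417 and 2521770 reads in LS cells (median 876538) and between 146870 and 676709 in NS cells (median 314709). Of 5 general neuron markers (Snap25, Syt1, Rbfox3, Tubb3, Map2) at least 3 were read in 33 of 35 LS cells and in 4 of 12 NS cells, and their summed level was below 20 FPKM in 3 LS and 8 NS cells, so most NS libraries lacked the markers of the labelled cell type. Odorant, vomeronasal and taste receptor genes, which cortical neurons do not use, reached at least 10% of the level of an even spread of reads over exons in 4 LS and 9 NS cells. Slc17a7 and Neurod2 outweighed Gad1 and Gad2 in 30 LS and 2 NS cells, called glutamate-marked below, and the reverse held in 4 LS and 6 NS cells, called GABA-marked. The part of these differences in the values below was not tested.

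The windows upstream of the genes are shown for the 5 members whose mean FPKM was at least 2-fold higher in LS cells, a choice made by that cut alone. Each is the 250 bases before the start given by RefSeq on GRCm38.p6, printed 5′ to 3′ on the strand of the gene. Capitals mark matches on either strand to TGACG (the core of the cAMP response element), GGGCGG (GC box), TATAAA or CACGTG (E-box).
Rgs7, chr1:175492546-175492795, minus strand: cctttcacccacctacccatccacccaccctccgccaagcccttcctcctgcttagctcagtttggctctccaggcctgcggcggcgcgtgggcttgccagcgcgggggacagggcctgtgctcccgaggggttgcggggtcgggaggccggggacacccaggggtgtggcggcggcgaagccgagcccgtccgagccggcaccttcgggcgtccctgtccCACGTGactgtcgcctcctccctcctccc
Gnb5, chr9:75306038-75306287, plus strand: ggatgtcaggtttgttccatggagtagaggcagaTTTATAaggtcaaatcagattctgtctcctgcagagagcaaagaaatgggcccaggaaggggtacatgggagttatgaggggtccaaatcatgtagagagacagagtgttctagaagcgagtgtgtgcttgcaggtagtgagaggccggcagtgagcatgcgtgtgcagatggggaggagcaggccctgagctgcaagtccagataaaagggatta
Rgs7bp, chr13:105054931-105055180, minus strand: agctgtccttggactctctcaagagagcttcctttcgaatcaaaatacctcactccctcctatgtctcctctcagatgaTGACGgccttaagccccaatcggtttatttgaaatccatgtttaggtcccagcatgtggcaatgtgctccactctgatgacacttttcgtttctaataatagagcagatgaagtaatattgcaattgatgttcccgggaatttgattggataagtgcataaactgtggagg
Rgs2, chr1:144004150-144004399, minus strand: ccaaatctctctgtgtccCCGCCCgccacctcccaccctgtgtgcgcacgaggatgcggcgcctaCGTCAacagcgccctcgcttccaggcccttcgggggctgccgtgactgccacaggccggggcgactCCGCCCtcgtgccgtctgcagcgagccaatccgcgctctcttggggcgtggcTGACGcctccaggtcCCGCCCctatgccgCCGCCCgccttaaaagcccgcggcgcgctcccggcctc
Rgs4, chr1:169747643-169747892, minus strand: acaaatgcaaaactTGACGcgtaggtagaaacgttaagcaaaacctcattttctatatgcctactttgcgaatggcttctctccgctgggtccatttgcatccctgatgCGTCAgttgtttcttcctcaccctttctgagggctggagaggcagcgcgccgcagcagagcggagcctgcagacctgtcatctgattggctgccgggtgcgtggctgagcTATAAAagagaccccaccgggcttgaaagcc

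These 5 windows held different letters. The Rgs2 window had 2 matches to TGACG and 4 to GGGCGG, the Rgs4 window 2 to TGACG and 1 to TATAAA, and the Rgs7bp window 1 to TGACG. The Rgs7 window had 1 match to CACGTG and the Gnb5 window 1 to TATAAA, and neither held TGACG. Among 32851 windows of the same length, 17.8% held TGACG, 32.7% GGGCGG, 12.4% TATAAA and 6.02% CACGTG. The share of G and C bases was 72.4% for Rgs7 and Rgs2, 53.6% for Rgs4, 50.8% for Gnb5 and 43.2% for Rgs7bp, beside a median of 52.4% over all windows. A window was found for 9 of the 10 members.

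LS and NS cells were first compared by the mean level of each member. Of the 10 members, 5 had a mean FPKM at least 2-fold higher in LS cells (Rgs7, Gnb5, Rgs7bp, Rgs2 and Rgs4) and 3 a mean at least 2-fold lower (Rgs6, Rgs10 and Rgs14), with Rgs8 and Rgs17 in between. Among the 16760 genes that reached a mean of 1 FPKM in LS or NS cells, 33.8% were at least 2-fold higher and 38.9% at least 2-fold lower in LS cells, so differences of this size were common and nothing is read from the counts of 5 and 3 alone. The median log2 ratio was 1.15 for the members and -0.20 for all 16760 genes. The share of cells in which a gene was read gave a more uniform picture. That share was at least 25 points higher in LS cells for 9 of the 10 members, all but Rgs10, against 36.5% of all genes. With every cell thinned to 140000 reads, a depth all 47 cells reached, the count was again 9 of 10, against 33.1% of 15667 genes.

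A typical LS cell had reads of 8 members (median of 35 cells, range 0 to 10), and a typical NS cell of 2.5 (median of 12, range 0 to 6). At least 7 members were read in 26 LS cells and in 0 NS cells. At the thinned depth the medians were 7 in LS and 2 in NS cells. NS cells had fewer genes of any kind, with a median of 3061.5 genes above 1 FPKM against 5890 in LS cells. The part of this general difference in the counts of members was not tested. LS cell 43, with a summed neuron marker level of 2.89 FPKM, and NS cell 2 had reads of none.

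**Figure D1:**
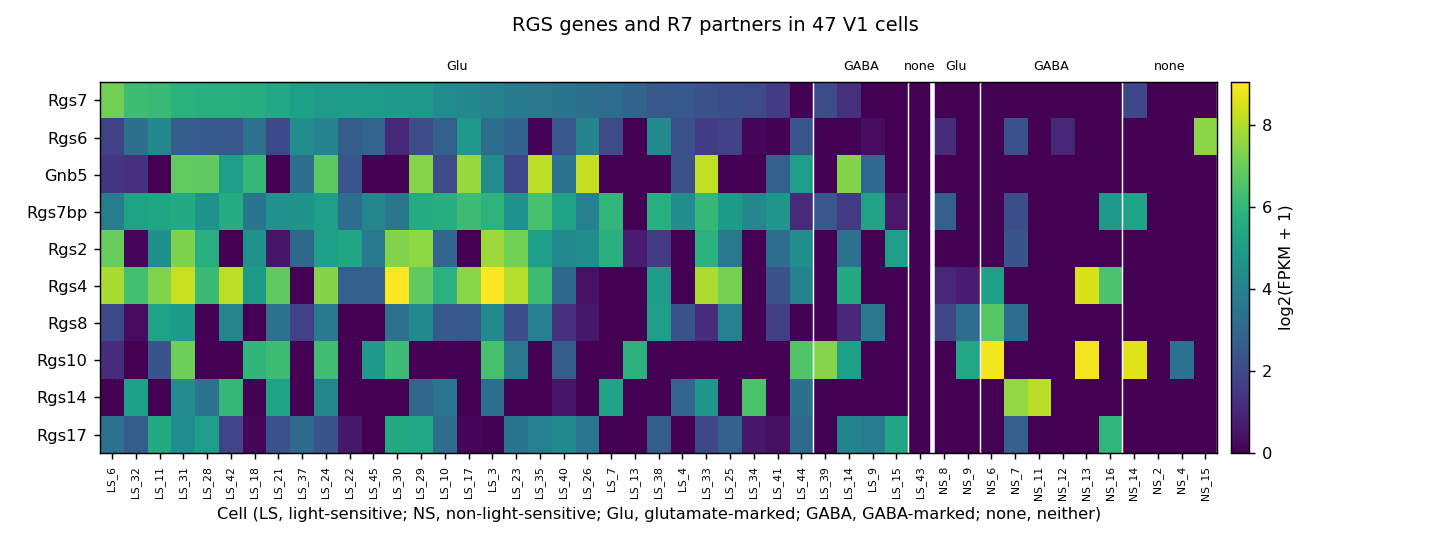
Level of each member (rows) in each of the 47 cells (columns), as log2(FPKM + 1), with cells ordered by group, by the class of their markers and by Rgs7. Rgs7 and Rgs7bp form nearly unbroken rows over the 30 glutamate-marked LS cells, while in NS cells the reads of the members lie in scattered cells.

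The R7 family came first, since its Rgs7 had the widest gap in the share of cells. Rgs7, which acts on G alpha i and o and is the most widely used R7 protein of the brain, lies on chr1:175059087-175492500 (GRCm38, minus strand). In LS cells its level ran from 0 to 137 FPKM with a median of 11.8 and a mean of 24.2 ± 28.7 FPKM (SD, n = 35). Among NS cells it was 2.93 FPKM in NS cell 14, from 14 reads, and 0 in the other 11. That cell lay above 6 LS cells, 4 of them at 0, and below the other 29. NS cell 14 was also one of the deeper NS libraries, with 676709 reads, and carried 5 of 8 microglia markers (3316 FPKM in sum).

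The mean of Rgs7 was 6.63 higher in LS cells on the log2 scale. Summed over cells the reads were 5472 (95% interval 5328 to 5619) in LS and 14 (7.65 to 23.5) in NS cells, a log2 ratio of 5.45 per total reads (4.70 to 6.32). The share of cells with reads was 88.6% (73.3 to 96.8) in LS and 8.33% (0.211 to 38.5) in NS cells, and both shares stayed the same at the thinned depth. No LS library dominated the sum, as LS cell 32 held the largest part, 18.5% of the reads. The 4 LS cells without Rgs7 were the GABA-marked cells 9 and 15, cell 43 and the glutamate-marked cell 44.

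Rgs6, the closest relative of Rgs7 in this set, lies on chr12:82588292-83162056. It was read in 30 of 35 LS cells at low levels, from 0 to 26.97 FPKM with a median of 4.41 and a mean of 6.01 ± 6.74 FPKM (SD, n = 35). In NS cells it was 178 FPKM in NS cell 15, between 0.953 and 3.91 FPKM in NS cells 7, 8 and 12, and 0 in the other 8. One cell therefore decided the mean: NS cell 15 held 96.1% of the 434 NS reads, so that the log2 ratio of -1.35 became 3.44 without it. That cell had no reads of the 5 neuron markers and the highest receptor gene level of the NS cells, 203% of an even spread. By cells with reads Rgs6 was the more frequent in LS, with 85.7% (69.7 to 95.2) against 33.3% (9.92 to 65.1). An antisense gene, Gm29530, shares 77 exonic bases with Rgs6, and reads of that stretch cannot be told apart without strand.

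Gnb5, the G beta subunit that R7 proteins need, lies on chr9:75306288-75345876. Its level in LS cells ran from 0 to 292 FPKM with a median of 4.27 and a mean of 54.9 ± 90.4 FPKM (SD, n = 35), and it was 0 in each of the 12 NS cells. LS cells thus fell into 12 cells at 0 and others that reached the highest levels of the 4 R7 complex genes in this group. With the NS count set to a floor of 3 reads over the 12 cells together, the 2974 LS reads would be 111-fold higher per total reads. This is not a lower limit, as the exact 95% interval of the log2 ratio starts at 6.49. A count of 0 of 12 cells allows a share of up to 25% by the floor of 3 counts and up to 26.5% by the exact interval, beside 65.7% (47.8 to 80.9) in LS. At the thinned depth 19 of 35 LS cells (54.3%) and 0 of 12 NS cells had Gnb5 reads. The antisense gene Gm19531 shares 248 exonic bases with Gnb5.

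Rgs7bp, the palmitoylated membrane anchor of R7 complexes, lies on chr13:104945904-105054930 and was the most frequent member. Its level in LS cells ran from 0 to 84.9 FPKM with a median of 24.6 and a mean of 29.4 ± 22.2 FPKM (SD, n = 35), an SD smaller than the mean, which held for no other member. In NS cells it was 36.9 FPKM in cell 14, 29.1 in cell 16, 5.73 in cell 8, 3.36 in cell 7 and 0 in the other 8. The ranges overlapped, since NS cells 14 and 16 lay above the LS median. The log2 ratio of the means was 2.23, and reads were held by 94.3% of the LS cells (80.8 to 99.3) but by 33.3% of the NS ones (9.92 to 65.1). Without NS cell 14 the ratio was 3.08, and among cells with at least 3 neuron markers (33 LS and 4 NS) it was 0.92.

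**Figure D2:**
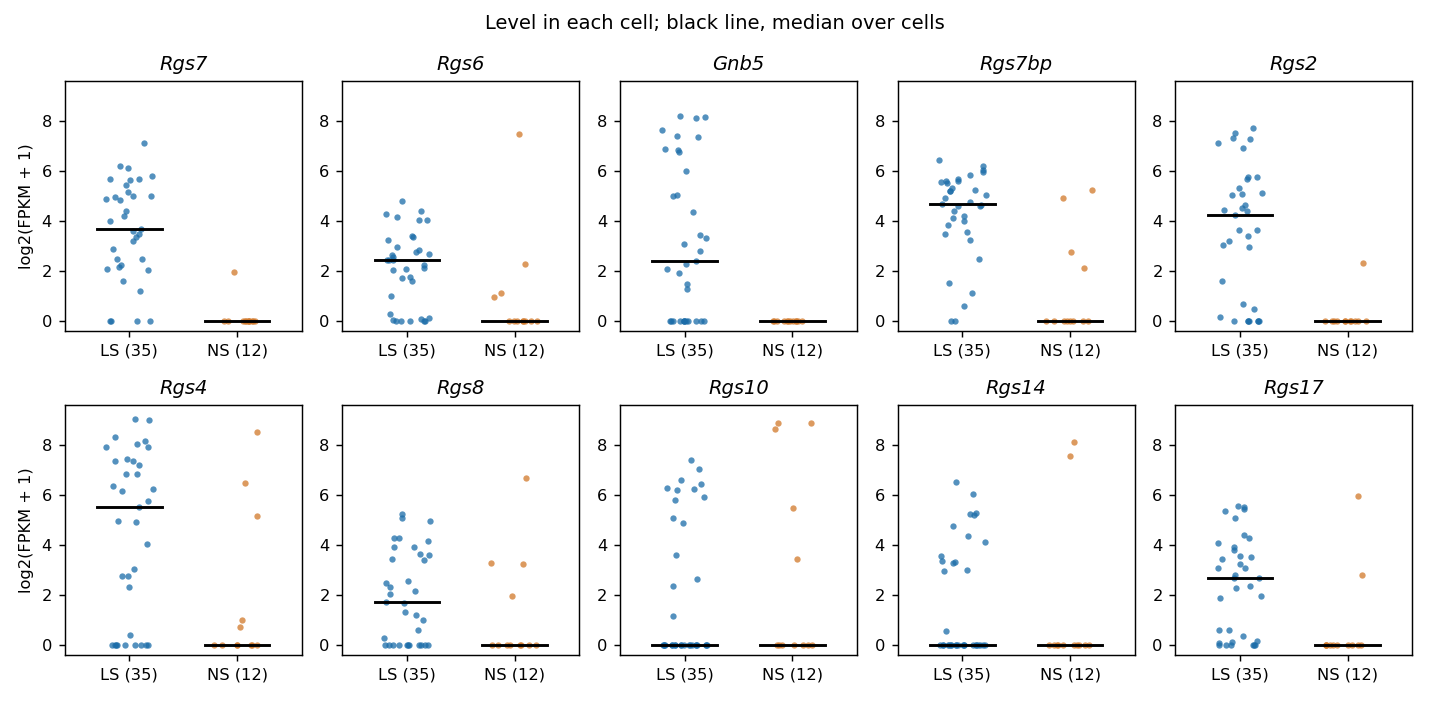
Level of each member in each cell as log2(FPKM + 1), with 35 LS cells in blue, 12 NS cells in orange and the median as a black line. The NS median is 0 for all 10 members. The highest cell is an NS cell for Rgs6, Rgs8, Rgs10, Rgs14 and Rgs17, and an LS cell for the other members.

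How often Rgs7 met its partners in the same cell was asked next, since the complex needs their products together. Rgs7, Gnb5 and Rgs7bp were all read in 21 of 35 LS cells, 60.0% (42.1 to 76.1), and in 0 of 12 NS cells (exact interval 0 to 26.5%). At the thinned depth the LS share was 48.6% (31.4 to 66.0) and the NS count remained 0. Since Gnb5 had no reads in any of the 12 NS cells, the NS count was bound to be 0 at both depths. Rgs7 and Rgs7bp were read together in 30 LS cells (85.7%, at both depths) and in NS cell 14 alone among NS cells. Every LS cell with Rgs7 and Gnb5 also had Rgs7bp.

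Gnb5 was the partner most often without reads. It was also counted over the shortest length, 1188 bases against 5828 for Rgs7bp, 6019 for Rgs7 and 10023 for Rgs6. The part of gene length in the shares below was not tested. Among the 31 LS cells with Rgs7, Rgs7bp was read in 30, Rgs6 in 28 and Gnb5 in 21, while 10 had Rgs7 without Gnb5. For comparison, 4.08% of genes at 1 FPKM or more were read in at least 30 of these 31 cells, 8.40% in at least 28 and 24.1% in at least 21, so Rgs7bp and Rgs6 stood higher in this order than Gnb5 did. Gnb5 without Rgs7 occurred in 2 LS cells and Rgs7bp without Rgs7 in 3 LS and 3 NS cells. In 20 LS cells Rgs6 was present as well, so that all but 1 of the 21 cells with the 3 genes also had the second R7 gene. None of Rgs7, Gnb5 and Rgs7bp was read in 1 LS cell and in 8 NS cells.

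The partners were then compared by level. Over the 35 LS cells the Pearson correlation of log2(FPKM + 1) with Rgs7 was 0.57 for Rgs6, 0.47 for Rgs7bp and 0.12 for Gnb5, and over the 30 glutamate-marked cells it was 0.35, 0.22 and 0.03. Over all 6121 genes compared with Rgs7 the median was 0.12 and the 90th percentile 0.37. On this scale Rgs6 and Rgs7bp stood above that percentile over the 35 cells and Gnb5 near the median. By Spearman's rank correlation Rgs6 had 0.59 (rank 23) and Rgs7bp 0.26 (rank 1457). On linear FPKM they had 0.19 (rank 1056) and 0.01 (rank 2915), so their places depended on the measure. These are descriptions without a test, and all genes of a cell share its library and depth. Gnb5 ranged from 0 to 292 FPKM among cells with Rgs7, and the cell with the most Rgs7, LS cell 6 at 137 FPKM, had 1.78 FPKM of Gnb5.

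**Figure D3:**
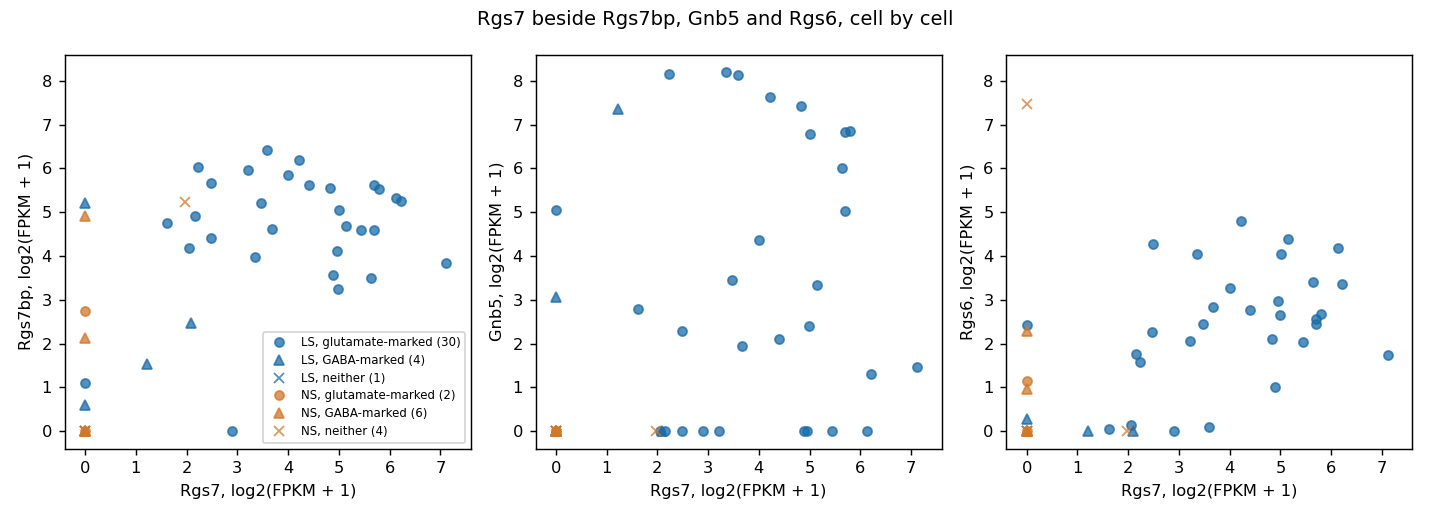
Level of Rgs7bp, Gnb5 and Rgs6 against that of Rgs7 in each of the 47 cells, as log2(FPKM + 1), with LS cells in blue, NS cells in orange and the class of each cell as the symbol. Most LS cells lie away from both axes for Rgs7bp, 10 LS cells lie on the Rgs7 axis for Gnb5, and the NS cells crowd at the origin.

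Rgs2, a regulator that prefers G alpha q and whose gene responds fast to neuronal activity, had the largest finite ratio of means, since Gnb5 was at 0 in NS cells, and led the R4 family. It lies on chr1:143999338-144004161. Levels in LS cells ran from 0 to 208 FPKM with a median of 17.9 and a mean of 40.7 ± 58.8 FPKM (SD, n = 35), and in NS cells it was 4.05 FPKM in NS cell 7, from 3 reads, and 0 in the other 11. That NS cell lay above the lower quartile of the LS cells (0.526 FPKM) and below their median. The log2 ratio of means was 6.91, and that of 6373 LS to 3 NS reads per total was 7.89 (6.34 to 10.2). With all 63 cells the log2 ratio was 3.43, as the removed NS cell 17 had 179 reads, and it was 3.95 among GABA-marked cells. LS cell 3 alone held 33.2% of the LS reads. Its reads were found in 80.0% of the LS (63.1 to 91.6) and 8.33% of the NS cells, and at the thinned depth in 71.4% and 8.33%.

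Rgs2 was set beside 7 immediate-early genes of neuronal activity. Its correlation over the 35 LS cells was 0.39 with Npas4 and 0.26 with Arc, 0.06 with Nr4a1, and between -0.24 and -0.03 with Fos, Egr1, Fosb and Junb, so Rgs2 did not follow the group of 7 as a whole. Npas4 was read in 8 and Arc in 11 of the 35 LS cells, so the 2 highest values rest mostly on cells without reads of those genes. Microglia also use Rgs2. Its correlation with the summed level of 8 microglia markers was 0.02 over these cells.

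Rgs4, a regulator of G alpha i and q known for its high level in cortex, had the highest mean of the members in LS cells and lies on chr1:169741477-169747642. It ran from 0 to 526 FPKM in LS cells with a median of 44.8 and a mean of 105 ± 140 FPKM (SD, n = 35). Among NS cells it was 361 FPKM in cell 13, 87.3 in cell 16, 34.5 in cell 6, 0.980 in cell 8, 0.646 in cell 9 and 0 in the other 7. The ranges overlapped widely, and NS cell 13 lay above all but 2 LS cells. The log2 ratio of means was 1.37, became 3.22 without NS cell 13, and turned to -0.67 among the 31 LS and 3 NS cells with a receptor gene level under 10%. Its reads were present in 74.3% (56.7 to 87.5) of LS against 41.7% (15.2 to 72.3) of NS cells. NS cells 13 and 16 were the pair with the strongest neuron markers in that group, at 1182 and 479 FPKM in sum. Pericytes also use Rgs4. Its correlation with 3 pericyte markers (Pdgfrb, Vtn and Kcnj8) was -0.33 over LS and -0.40 over NS cells, with Kcnj8 at 0 in all of these cells.

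Rgs8, which speeds the opening and closing of GIRK potassium channels, lies on chr1:153653025-153700323 and stayed below 2-fold. It ran from 0 to 36.2 FPKM in LS cells with a median of 2.26 and a mean of 7.16 ± 9.90 FPKM (SD, n = 35). In NS cells it was 101 FPKM in cell 6, 8.63 in cell 7, 8.51 in cell 9, 2.84 in cell 8 and 0 in the other 8. NS cell 6, the shallowest of the 47 libraries at 146870 reads with a receptor gene level of 99.98% of an even spread, held 72.1% of the 240 NS reads, and the log2 ratio of -0.49 became 1.98 without it. More LS (68.6%, 50.7 to 83.1) than NS cells (33.3%, 9.92 to 65.1) had reads, with intervals that overlap. Of the 4 NS cells with Rgs8, all had a receptor gene level over 10%. Gm29529, an antisense gene, shares 70 exonic bases with Rgs8.

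Rgs10, a small R12 regulator of G alpha i that is abundant in microglia, was the member with the most even share of cells. It lies on chr7:128373621-128418758 and was read in 15 of 35 LS (42.9%, 26.3 to 60.6) and 5 of 12 NS cells (41.7%, 15.2 to 72.3). Its LS levels ran from 0 to 169 FPKM with a median of 0 and a mean of 25.7 ± 43.4 FPKM (SD, n = 35). In NS cells it was 468 FPKM in cell 13, 467 in cell 6, 391 in cell 14, 43.2 in cell 9 and 9.81 in cell 4. The first 3 of these lay above every LS cell, with 355, 142 and 531 reads. The log2 ratio of means was -2.16 (mean in NS cells 115 ± 199 FPKM, SD, n = 12), and leaving out any 1 cell kept it between -2.42 and -1.69.

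Since microglia use Rgs10, their 8 markers were read beside it. Their summed level ran from 0 to 4003 FPKM in LS cells and from 5.48 to 11746 FPKM in NS cells, and at least 3 of the 8 were read in 24 of 35 LS and 8 of 12 NS cells. The 3 NS cells with the most Rgs10 had 5.48 (cell 13), 110 (cell 6) and 3316 FPKM (cell 14), while NS cell 4, with the highest sum of 11746 FPKM and all 8 markers, had 9.81 FPKM of Rgs10. The correlation of Rgs10 with this sum was 0.28 over the 35 LS cells and -0.18 over the 12 NS cells. NS cell 13, with 468 FPKM of Rgs10, had the lowest summed level of microglia markers in the NS group and reads of 4 of the 8. Whether RNA of microglia added to Rgs10 was not tested.

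Rgs14, which joins an RGS domain to Ras and Rap binding domains and is best known from the CA2 field of the hippocampus, lies on chr13:55369732-55384687. It was read in 15 LS cells (42.9%, 26.3 to 60.6), from 0 to 89.1 FPKM with a median of 0 and a mean of 10.8 ± 20.2 FPKM (SD, n = 35). Among NS cells it was 274 FPKM in cell 11, 189 in cell 7 and 0 in the other 10. Both NS cells lay above every LS cell and both had high receptor gene levels, 106% and 95.7% of an even spread, with 1 of 5 neuron markers read. On the means the log2 ratio was -1.84, and it was -0.67 without NS cell 11 and -1.21 without NS cell 7. On the share of cells the order was the other way, 42.9% in LS against 16.7% (2.09 to 48.4) in NS.

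Rgs17, of the RZ family that acts on G alpha z and i, lies on chr10:5825663-5922400. It ran from 0 to 45.4 FPKM in LS cells with a median of 5.36 and a mean of 10.6 ± 13.8 FPKM (SD, n = 35), and among NS cells it was 61.1 FPKM in cell 16, 5.90 in cell 7 and 0 in the other 10. NS cell 16, GABA-marked and with all 5 neuron markers, lay above every LS cell and held 97.4% of the NS reads. Its means gave a log2 ratio of 0.93, and 4.31 without that cell. In LS 82.9% of the cells had its reads (66.4 to 93.4), in NS 16.7% (2.09 to 48.4), a gap of 66.2 points that was 54.8 points at the thinned depth.

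**Figure D4:**
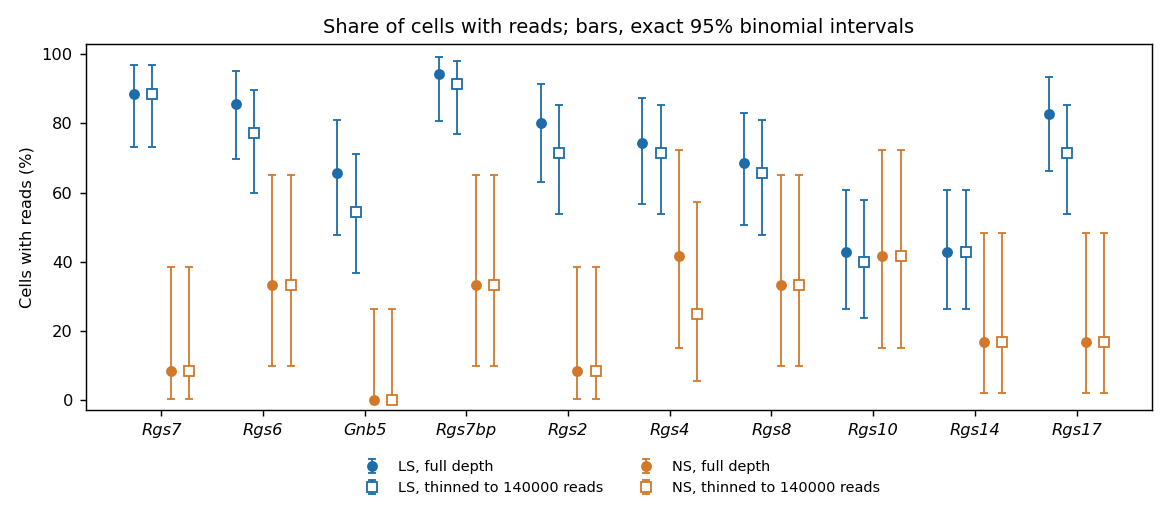
Share of the 35 LS cells (blue) and the 12 NS cells (orange) with reads of each member, at full depth (filled circles) and thinned to 140000 reads per cell (open squares), with exact 95% binomial intervals. The gap between LS and NS is widest for Rgs7 at both depths (80.2 points), and the shares for Rgs10 are nearly equal.

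Ordered by mean level in LS cells, the members ran from Rgs4 (105 FPKM) over Gnb5 (54.9), Rgs2 (40.7), Rgs7bp (29.4), Rgs10 (25.7), Rgs7 (24.2), Rgs14 (10.8), Rgs17 (10.6) and Rgs8 (7.16) to Rgs6 (6.01). Neighbours in this order differed by less than the SD of either. FPKM divides by gene length, and the authors' length was shorter than that of the GENCODE M21 annotation for Gnb5 (1188 against 3115 bases), Rgs14 (2490 against 4239) and Rgs7bp (5828 against 7077). With the annotated lengths their means would be 20.9, 6.32 and 24.2 FPKM, and Gnb5 would stand below Rgs7. Comparisons of the same gene between cells do not depend on its length.

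Within the LS cells the members split by the class of the cell. Of the 30 glutamate-marked cells 29 had Rgs7, with a median of 18.9 and a mean of 28.03 ± 29.3 FPKM (SD, n = 30). In the 4 GABA-marked cells it was 3.26, 1.33, 0 and 0 FPKM. Rgs6 was read in 29 of 30 glutamate-marked cells (7.003 ± 6.79 FPKM) and in 1 of the 4 GABA-marked cells, from 1 read. Both R7 genes therefore lay mainly in the glutamate-marked cells, and all 30 of those had at least 1 of them.

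The other members followed this split to different degrees. Rgs14 was read in 15 of the 30 glutamate-marked cells and in 0 of the 4 GABA-marked ones, and Rgs4 in 25 and 1. Rgs7bp had reads in all 4 GABA-marked cells, at 0.521, 1.90, 4.55 and 35.9 FPKM, against a median of 27.7 FPKM in the glutamate-marked ones. Gnb5 was read in 21 of 30 and 2 of 4 cells with means of 58.3 and 42.4 FPKM, the latter falling to 2.47 FPKM without LS cell 14. Rgs10 was 169, 32.998, 0 and 0 FPKM in the GABA-marked cells, a mean of 50.5 against 23.3 FPKM. LS cell 39 decided this mean, which was 10.999 FPKM without it, and that cell had 5.21 FPKM of neuron markers and the highest microglia sum of the LS cells, 4003 FPKM. The GABA-marked mean of Rgs17, 17.1 against 10.1 FPKM, was likewise 9.61 FPKM without LS cell 15. In all, 7 of 10 members had a mean at least 2-fold higher in the glutamate-marked cells and 1 (Rgs10) a mean at least 2-fold lower, beside 46.2% and 23.2% of 14454 genes. With 4 GABA-marked cells the exact interval of a share of 2 of 4 runs from 6.76 to 93.2%.

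This split bears on the LS and NS comparison, because 30 of 35 LS cells but 2 of 12 NS cells were glutamate-marked, so values within a class stand beside the pooled ones here. Neither glutamate-marked NS cell (8 and 9) had reads of Rgs7, Gnb5 or Rgs2, but their neuron markers summed to 16.7 and 9.77 FPKM. Among GABA-marked cells, Rgs7 was read in 2 of 4 LS and 0 of 6 NS cells, and Rgs4 had the higher mean in NS, 80.5 against 11.2 FPKM. Restricted to cells with at least 3 neuron markers (33 LS and 4 NS), the log2 ratio of Rgs7 was 5.12, and 6 members were at least 2-fold higher in LS, when 65.0% of all genes were.

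**Figure D5:**
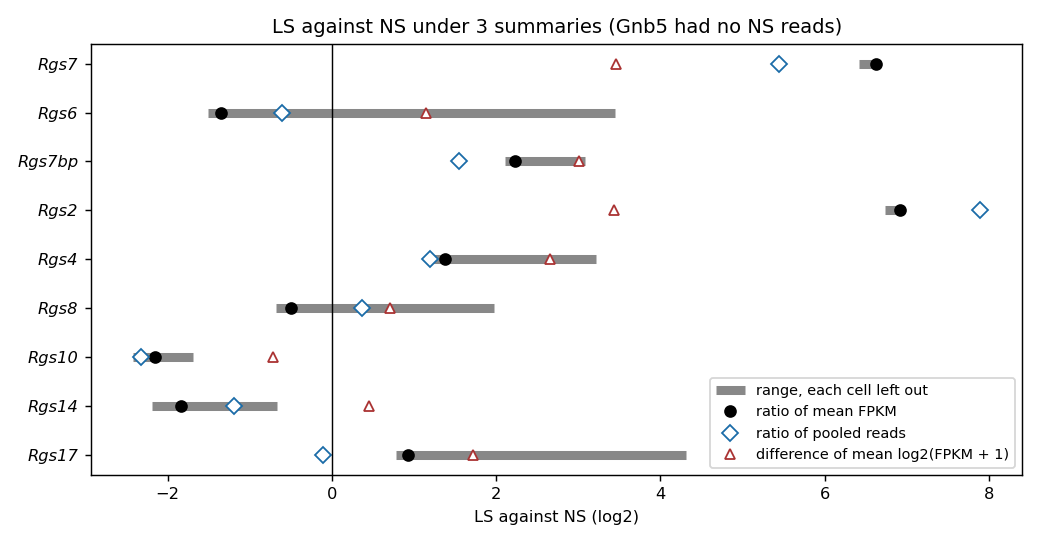
Difference between LS and NS cells for 9 members on the log2 scale, as the ratio of mean FPKM (black), the ratio of pooled reads per total (blue diamonds) and the difference of mean log2(FPKM + 1) (red triangles), with the range over leaving out each cell as a grey bar. Rgs7, Rgs2, Rgs7bp and Rgs4 lie right of 0 under the 3 summaries, Rgs10 left of 0, and Rgs6, Rgs8, Rgs14 and Rgs17 change side.

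The genes whose pattern was most like that of Rgs7 were sought among the 6121 other genes read in enough LS cells. By the Pearson correlation of log2(FPKM + 1) over the 35 LS cells these were Ppp1r1b (0.71), which encodes the phosphatase inhibitor DARPP-32, Brinp1 (0.70), Rasgrp1 (0.69), a Ras guanine nucleotide exchange factor, Lingo1 (0.67) and 2010300C02Rik (0.67). The median over the 6121 genes was 0.12. Slc17a7, the vesicular glutamate transporter that defined the class, came at rank 7 with 0.66, and the 5 genes fell to between 0.46 and 0.63 over the glutamate-marked cells alone. Rgs6 stood at rank 51 and Rgs4 at rank 75, and Gnb5 at rank 3012. Of the 5 genes, 2 were also among the first 5 by Spearman's rank correlation and 1 on linear FPKM, where Rasgrp1 kept 0.72 and 0.73. Rgs7 had a correlation of 0.19 with the number of genes above 1 FPKM in a cell.

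The other genes of the pathway, listed by role, gave the setting of the members. Of 13 other RGS genes 9 reached 1 FPKM in either group, and 4 had a mean at least 2-fold higher and 3 at least 2-fold lower in LS cells (median log2 ratio 0.94), beside 33.8% and 38.9% of all genes, the background for each list below. Rgs19 (10.8 ± 21.003 against 1.16 ± 4.04 FPKM), Rgs9 (6.79 ± 10.9 against 2.82 ± 2.67) and Rgs12 (5.19 ± 14.8 against 0.499 ± 1.14) had the highest LS means (SD, n = 35 and 12). Rgs9, the R7 relative of striatum and retina, was read in all 35 LS and 11 of 12 NS cells, more than any member. Among these 9 genes Rgs12 had the largest finite ratio (log2 3.38), with reads in 13 LS and 3 NS cells. Rgs20 had the smallest (-3.04), with reads in 6 LS and 2 NS cells. Rgs16, at 2.52 FPKM in LS from 6 cells, was listed at 0 in every NS cell. Rgs12 had its level in the GABA-marked LS cells, at 27.8 against 2.34 FPKM.

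Among other proteins that bind R7 complexes, Gpr158, an orphan receptor that recruits Rgs7 to the membrane, was read in 27 of 35 LS and 2 of 12 NS cells, at 6.61 ± 9.84 and 1.65 ± 5.52 FPKM. Its correlation with Rgs7 over LS cells was 0.56, rank 67 of 6121. Rgs9bp, the anchor used in the retina, was at 0.125 ± 0.458 FPKM in LS against 13.02 ± 25.2 FPKM in NS (log2 ratio -6.70), where it was read in 3 cells. Gpr179 stayed below 1 FPKM in both groups, at 0.660 and 0.460 FPKM.

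The G alpha subunits on which the members act lay on both sides of 0. Of 16 genes 14 reached 1 FPKM, 3 were at least 2-fold higher and 6 at least 2-fold lower in LS cells (median log2 ratio -0.73), against 33.8% and 38.9% of all genes. Gnai1 was 45.8 ± 50.3 FPKM in LS against 0.653 ± 1.46 FPKM in NS (log2 ratio 6.13), read in 31 and 3 cells, which came near the ratio of Rgs7. Gnai2 (34.3 ± 60.6 against 52.1 ± 71.4 FPKM) and Gnao1 (31.6 ± 26.7 against 56.5 ± 108 FPKM), the main target of R7 proteins in brain, were both below 2-fold, and Gna11 had the smallest ratio (-2.67).

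Of the 16 other G beta and gamma genes all reached 1 FPKM, 7 were at least 2-fold higher and 6 at least 2-fold lower (median log2 ratio 0.50), again beside 33.8% and 38.9%. Gng3 (184 ± 152 against 9.39 ± 23.5 FPKM) had the largest ratio (4.29), Gnb1 was 108 ± 69.1 against 49.2 ± 75.2 FPKM and Gnb2 43.4 ± 36.1 against 18.9 ± 25.1 FPKM. Gng8 was listed at 0 in every LS cell and above 0 in 2 NS cells. Gngt1 had the smallest finite ratio (-7.61), with values above 0 in 1 LS and 1 NS cell. Unlike Gnb5, Gnb1 was read in all 35 LS cells and in 9 of 12 NS cells.

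GIRK channel genes, whose currents R7 complexes shorten, are given in brief. Of the 4 genes, 3 had a mean at least 2-fold higher in LS cells, when 33.8% of all genes did, led by Kcnj9 (6.93 against 0.334 FPKM) and Kcnj3 (4.66 against 0.388 FPKM), with Kcnj6 at 5.12 against 2.32 FPKM and Kcnj5 at 4.05 against 5.05 FPKM.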

How the data were processed

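Somata of 63 V1 cells (46 LS, 17 NS) were measured by Smart-seq2. The authors trimmed reads with AfterQC, aligned them with STAR 2.5.3a to GRCm38, counted them per gene with featureCounts and made the deposited FPKM values with scater, for protein-coding genes only; no count table was used here, and 0 per-cell columns stayed unused. No strand setting is given in the sources used here. The members and lists were chosen with earlier results of these data known.

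The 4 rows with a repeated name were left out. Within a cell, FPKM times gene length moves in steps of 1 read, and the reads were computed from these steps. Lengths came from GENCODE M21 for 12021 genes and were solved from the values for 5831, while 2327 stayed unsolved. Of the values above 0 in the table, 98.4% belong to genes with solved reads, and 99.9% of the resolved values below 200 reads were whole within 0.0001 reads. Tested on simulated data of 20179 genes, 99.7% of values were resolved. With 200 changes planted in the mean level of simulated LS and NS cells, 188 came back within a log2 difference of 0.2.

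Filters followed the study: cells of low cDNA concentration by name, fewer than 1000 genes above 1 FPKM, a mitochondrial share above 25%, and joint marker scores for astrocytes, for oligodendrocytes, and for excitatory with inhibitory neurons. They left 47 cells, fewer LS cells than the study kept, and the cause of this difference was not tested. The mitochondrial limit removed 0 cells here. The ratio of mean FPKM was called at 2-fold with at least 1 FPKM in the higher group, and genes at 0 in the other group counted as called. Named were all members, the 3 genes of each pathway list with the highest LS mean, those with the largest and smallest ratio, genes at 0 in 1 group, and the 5 genes most like Rgs7. The deepest and shallowest cells differ, so shares were also taken after thinning to 140000 reads (seed 11). Alternatives were other sets of cells, summaries, minimum levels and detection limits, and each cell left out. The sets of GABA-marked cells and of cells with at least 3 neuron markers were added after seeing the data. Python 3.11.15, numpy 2.4.6, pandas 2.3.3, scipy 1.17.1 and matplotlib were used. The recordings, co-expression modules and drug experiments were not analysed here.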

Additional observations from a re-analysis of the deposited data

Results flagged for a closer look

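Cells that the quality filters removed held reads of the Rgs7 complex above the limit that a count of 0 allows (3 reads). NS cell 17, removed because it had reads of all 4 excitatory and inhibitory markers, had 196 reads of Rgs7 (34.9 FPKM), 61 of Gnb5 (55.0 FPKM) and 392 of Rgs7bp (72.1 FPKM), and reads of all 10 members. Its 5 neuron markers summed to 932 FPKM, and its receptor gene level was 12.5% of an even spread. NS cell 1, removed for low cDNA concentration, had 58 reads of Gnb5 (135 FPKM) and 0 of Rgs7. With all 63 cells, Rgs7 was read in 39 of 46 LS and 2 of 17 NS cells, and Gnb5 in 31 of 46 and 2 of 17.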

How the results depend on the processing

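The log2 ratio of Rgs7 (6.63) stayed positive wherever it could be computed. It was 3.27 with all 63 cells, 4.48 with a receptor gene level under 10% (31 LS and 3 NS cells), 5.45 on pooled reads, 3.46 as a difference of mean log2(FPKM + 1), 5.12 among cells with at least 3 neuron markers, and 6.42 to 6.67 with each cell left out. It has no value without NS cell 14, among glutamate-marked or GABA-marked cells, or for medians, since Rgs7 is then at 0 in NS. The number of members at least 2-fold higher (5) was 8 among glutamate-marked cells, 9 on log2(FPKM + 0.1) and 3 among GABA-marked cells, when 47.7%, 42.6% and 42% of all genes were, and 5 to 6 with each cell left out. The number at least 2-fold lower (3) was 0 among glutamate-marked cells and on log2(FPKM + 1) and log2(FPKM + 0.1), when 35%, 5.77% and 12.9% of all genes were, 1 among cells with at least 3 neuron markers (18.8%), 4 among GABA-marked cells (42.5%), and 2 to 3 with each cell left out. LS cells with reads of Rgs7, Gnb5 and Rgs7bp (60.0%) were 25% among the 4 GABA-marked cells and 58.8 to 61.8% with each cell left out. The NS share was 5.88% with all 63 cells. With each cell left out it was bound to be 0, since no kept NS cell had Gnb5 reads.

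The sign of 6 other members changed. Rgs4 (1.37) was -0.67 with a receptor gene level under 10%, -0.015 among cells with at least 3 neuron markers and -2.85 among GABA-marked cells. Rgs6 (-1.35) was 3.53 among glutamate-marked cells, 1.15 and 2.58 on log2(FPKM + 1) and log2(FPKM + 0.1), 4.74 among cells with at least 3 neuron markers, and with each cell left out between -1.51 and 3.44, the latter without NS cell 15. Rgs10 (-2.16) was 0.11 among glutamate-marked cells, and Rgs14 (-1.84) was 0.45 and 1.25 on the 2 log scales. Rgs8 (-0.49) was 0.37 on pooled reads, 0.49 among glutamate-marked cells, 0.71 and 1.69 on the log scales and 1.98 without NS cell 6. Rgs17 (0.93) was -0.11 on pooled reads, -1.05 with a receptor gene level under 10% and -0.44 among cells with at least 3 neuron markers. Rgs2 (6.91) kept its sign, at 3.43 with all 63 cells and on log2(FPKM + 1). Within LS cells, Rgs10 in glutamate-marked over GABA-marked cells (-1.12) ran from -1.53 to 1.08 with each GABA-marked cell left out, the latter without LS cell 39. The causes were not tested beyond the cells named. No paired analysis was possible because the numbers of the cells only name them. With 12 NS cells, a share of up to 26.5% is possible for a gene at 0, and at 146870 to 676709 reads per NS cell a gene without reads may still be expressed.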
